A study of Mus musculus with 9 samples.

Results

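Radial glia are the stem cells of the developing cerebral cortex, and 38 genes of their identity and polarity were followed here through knockdown of a circular RNA and of the mRNA of the same gene. The genes were listed by symbol as radial glia markers, SoxB and related stem cell factors, apical polarity genes and Hippo pathway genes. Each of the 38 symbols had exactly 1 row among the 53379 gene IDs of the count table. All 38 also passed the filter on low counts, which left 17760 genes to test. By role they comprise 9 metabolic and glial genes, 10 stem cell factors, 8 genes of filaments and the cell surface, 7 polarity genes and 4 genes of the Hippo pathway.

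RNA came from GFP+ cells of the cortex of C57BL/6 mouse embryos, electroporated in utero at E13.5 (embryonic day) and collected at E15.5. The cells were sorted on GFP by FACS, so the sort was on electroporation and not on a cell type. The circSlc45a4 knockdown (circRNA knockdown) received 3 shRNAs (short hairpin RNAs) against circSlc45a4, the circular RNA of the Slc45a4 locus, and the Slc45a4 mRNA knockdown (mRNA knockdown) received 2 shRNAs against the linear transcript. Scramble received 1 shRNA of scrambled sequence, and each group held 3 biological replicates. Libraries were made from polyA RNA, which does not retain a circular RNA, so circSlc45a4 itself was not read.

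Radial glia stand on the ventricle with an apical foot and reach the outer surface of the cortex with a long basal fibre. They divide to renew themselves and to make basal progenitors and neurons, and near the end of neurogenesis many of them turn to making astrocytes. Their name reflects that they already express genes of astrocytes, such as a brain fatty acid binding protein and glutamate transporters, beside stem cell factors of the SoxB family. The Par complex, with its atypical protein kinase C, marks their apical side, and Numb proteins and the spindle regulator Gpsm2 act in division and at apical junctions. The Hippo pathway, a kinase cascade, holds the coactivators Yap1 and Wwtr1 (TAZ) away from the Tead transcription factors.

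Total counts ranged from 21073174 to 45469298 per library, the lowest being scramble replicate 1. Levels are given as CPM, a count divided by the TMM-scaled library total in units of 1e6 counts. Since circSlc45a4 was not read, the linear Slc45a4 transcript could check only the label of the mRNA knockdown. It stood at 25.4, 25.3 and 24.7 CPM in the circRNA knockdown, 13.3, 18.5 and 17.4 CPM in the mRNA knockdown, and 31.4, 33.6 and 33.96 CPM in scramble, lower than every scramble library in all 6 knockdown libraries. Loss of the circular RNA and the smaller loss of the linear one cannot be told apart in the circRNA knockdown. Emx1, a factor of the dorsal telencephalon that marks cortical cells, was read in every library, at 105 to 140.1 CPM in the circRNA knockdown and 70.9 to 87.4 CPM in the mRNA knockdown, against 96.6 to 103 CPM in scramble. Scramble replicate 1 was the lowest of its group for 32 of the 38 genes, against 36.8% of all genes tested. The libraries also differed in the sex of the embryos. Xist, which coats the silenced X chromosome of female cells, was read at 635, 264 and 428 CPM in the circRNA knockdown, 1549.6, 637 and 0.194 CPM in the mRNA knockdown, and 0.239, 0.0648 and 0.0618 CPM in scramble. Scramble thus held no library with Xist at 1 CPM or more, and Xist and group cannot be told apart between the circRNA knockdown and scramble.

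Against scramble, the circRNA knockdown had more RNA of most metabolic, glial and surface genes of radial glia, of Sox2, Sox9 and Sox21, and less of the polarity genes Prkci and Gpsm2. The quasi-likelihood test of edgeR called 17 of the 38 genes higher and 5 lower at a Benjamini-Hochberg adjusted p under 0.05, and 16 were not called. The called share was 57.9%, beside 27.1% of all genes tested, and the median log2 fold change was 0.40, beside -0.01 over all genes. Over all genes, 14.1% were called higher and 13.0% lower. For 23 of the 38 genes the 3 knockdown libraries and the 3 scramble libraries did not overlap, as for 43.9% of all genes. The count of lower calls fell to 2 without circRNA knockdown replicate 1 or scramble replicate 3 and to 3 without circRNA knockdown replicate 2 or scramble replicate 2.

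In the mRNA knockdown the test called 11 of the 38 genes higher than scramble and 1 lower (31.6%, beside 18.0% of all genes tested). Over all genes, 8.92% were called higher and 9.09% lower. The median log2 fold change was 0.17, beside 0.01 over all genes, and 16 genes did not overlap between the groups, as for 36.1% of all genes. The count of higher calls was 5 without scramble replicate 1, 6 without mRNA knockdown replicate 3 and 7 without circRNA knockdown replicate 2 or scramble replicate 3. The lower calls were 2 without mRNA knockdown replicate 3 (Glul and Mfge8) or scramble replicate 1 (Glul and Nes). Both knockdowns were set against the same 3 scramble libraries, so their fold changes are not independent of each other. In the direct comparison, which uses no scramble library except to estimate the spread, 13 genes were higher and 6 lower in the circRNA knockdown than in the mRNA knockdown. That share of 50.0% stands beside 26.1% of all genes, of which 13.8% were called higher and 12.3% lower. The median difference was 0.18, beside -0.02 over all genes, and 22 genes did not overlap, as for 40.1% of all genes. GFP+ cells are a mixture, and fewer cells of a type cannot be told apart from less RNA per cell in any of these values.

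**Figure D1:**
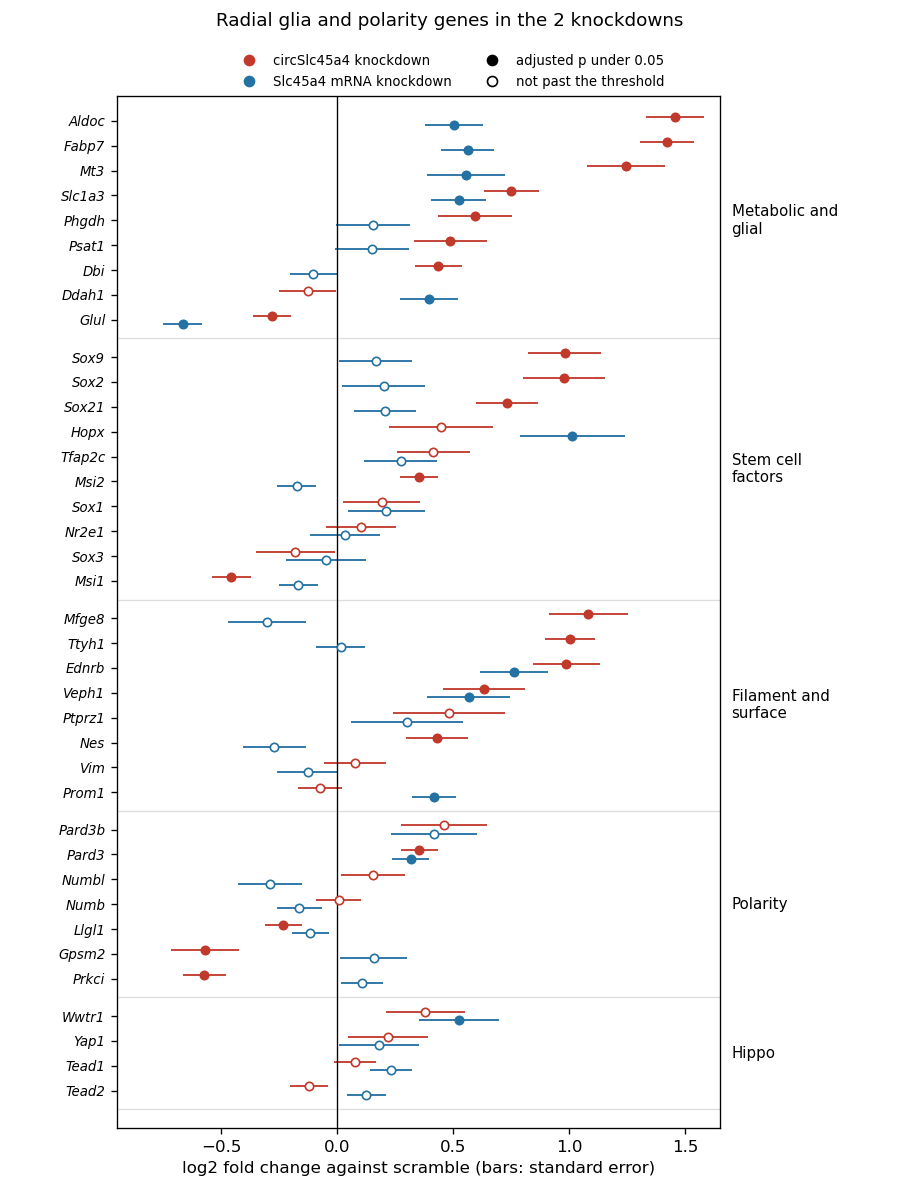
Log2 fold change of each of the 38 genes against scramble, grouped by role, for the circRNA knockdown and the mRNA knockdown (bars: standard error, filled points: adjusted p under 0.05). Aldoc (1.46 and 0.50) and Fabp7 (1.42 and 0.56) lie furthest to the right among the metabolic genes, Hopx reaches 1.01 in the mRNA knockdown and 0.45 in the circRNA knockdown, and Prkci and Gpsm2 (-0.57 each) lie left of 0 in the circRNA knockdown.

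The genes differ widely in level. Per kilobase of annotated exon, Fabp7 stood first in scramble at 104 ± 12.5 CPM (mean ± SD, n = 3), with Vim at 90.2 ± 18.7 and Dbi at 81.1 ± 6.47 CPM per kilobase. The SDs of Fabp7 and Vim overlap, and so do those of Vim and Dbi. Llgl1, Glul and Msi1 followed at 46.5 ± 1.79, 41.3 ± 1.11 and 38.5 ± 2.23 CPM per kilobase. At the low end stood Yap1 (2.64 ± 0.438), Hopx (2.04 ± 0.411), Veph1 (1.48 ± 0.156) and Pard3b (0.311 ± 0.0439). In the circRNA knockdown Fabp7 reached 279 ± 29.8 CPM per kilobase, with Dbi at 109.7 ± 15.3 and Vim at 95.1 ± 4.22. Aldoc, the 13th gene of the scramble order at 18.3 ± 2.95 CPM per kilobase, stood at 50.3 ± 3.60 in the circRNA knockdown, above every gene but those 3.

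**Figure D2:**
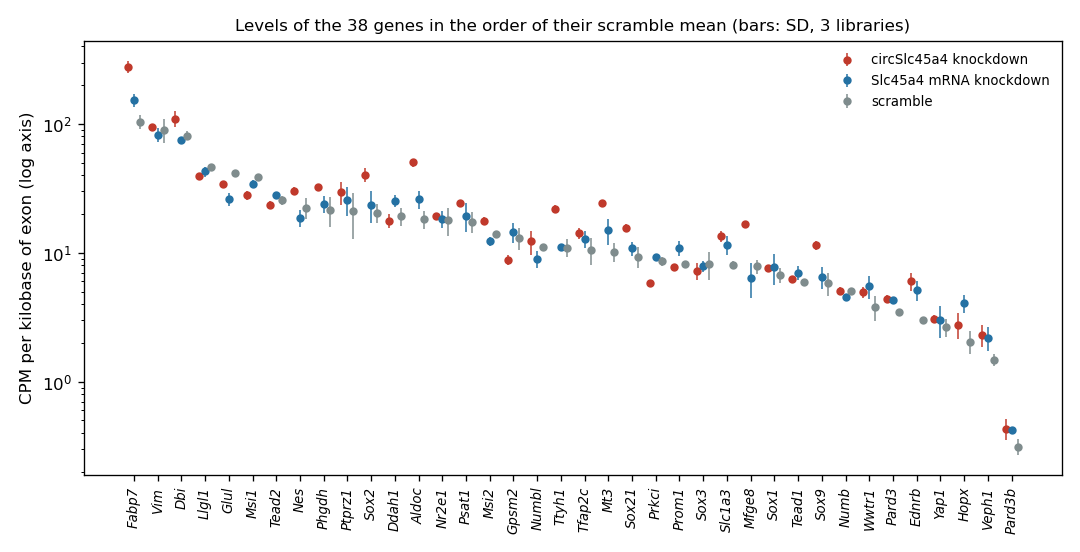
Level of the 38 genes in CPM per kilobase of exon on a log axis, ordered by their scramble mean (points: group means, bars: SD over 3 libraries). Fabp7 has the highest scramble mean (104) and Pard3b the lowest (0.312), and the circRNA knockdown stands clearly apart at Fabp7 (279 against 104) and Aldoc (50.3 against 18.3).

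Metabolic and glial genes held the 3 largest fold changes of the circRNA knockdown against scramble, while Hopx had the largest in the mRNA knockdown and Mfge8 and Ttyh1 the largest between the knockdowns. In the circRNA knockdown 7 of 9 were higher than scramble and 1 lower, with a median log2 fold change of 0.59. With mRNA knockdown 5 were higher and 1 lower, with a median of 0.40. The median difference between the knockdowns was 0.44, with 5 genes higher and 1 lower in the circRNA knockdown. Without scramble replicate 1 the first of these medians was 0.39. The called shares in these 3 comparisons, in that order, were 88.9%, 66.7% and 66.7%, beside 27.1%, 18.0% and 26.1% of all genes tested. Fabp7 and Aldoc were called in all 3 comparisons, with the largest fold changes of the 38 genes against scramble in the circRNA knockdown, and the 250 bases before their RefSeq start sites are printed to show the sequence in front of them. They read 5′ to 3′ on the strand of the gene (GRCm38.p6, Fabp7 at chr10:57784673-57784922, plus strand, Aldoc at chr11:78322823-78323072, plus strand). Capitals mark the RBPJ motif TGGGAA (reverse complement TTCCCA) of the Notch pathway and the TEAD motif GGAATG (reverse complement CATTCC) of the Hippo pathway, searched on both strands.
Fabp7: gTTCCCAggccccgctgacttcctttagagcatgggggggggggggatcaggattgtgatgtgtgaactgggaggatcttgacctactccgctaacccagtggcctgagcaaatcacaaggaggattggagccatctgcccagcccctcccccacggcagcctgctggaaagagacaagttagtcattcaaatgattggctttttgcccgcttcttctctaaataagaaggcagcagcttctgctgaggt
Aldoc: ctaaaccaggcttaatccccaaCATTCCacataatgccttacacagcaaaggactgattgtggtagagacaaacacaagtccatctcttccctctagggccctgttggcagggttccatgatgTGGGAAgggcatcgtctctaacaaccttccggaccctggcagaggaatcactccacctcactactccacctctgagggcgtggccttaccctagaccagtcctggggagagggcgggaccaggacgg
Counting from -1 at the base before the start, Fabp7 held the RBPJ letters at -249, and Aldoc held the TEAD letters at -228 and the RBPJ letters at -127. Of the 38 genes, 33 had a window in the RefSeq table. The RBPJ letters stood in 8 of these (24.2%), against 21.6% of 32536 windows of all genes. The TEAD letters stood in 5 (15.2%), against 12.6%, and the SOX motif ACAATG (reverse complement CATTGT) in 0, against 10.5%. These motifs do not overlap each other as printed, and a match describes letters, not binding.

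Fabp7 (chromosome 10, 57784881 to 57788450, plus strand, GRCm38) encodes the brain fatty acid binding protein, a standard marker of radial glia. It stood at 306, 368 and 372 CPM in the circRNA knockdown, 192, 170.1 and 214 CPM in the mRNA knockdown, and 136, 142 and 112 CPM in scramble. All 3 groups lay apart, with every circRNA knockdown library above every mRNA knockdown library and these above scramble. The log2 fold change against scramble was 1.42 ± 0.12 (SE, adjusted p = 2.88e-06) in the circRNA knockdown and 0.56 ± 0.11 (SE, adjusted p = 0.00423) in the mRNA knockdown, and the knockdowns differed by 0.86 ± 0.11 (SE, adjusted p = 1.61e-04).

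Aldoc (chromosome 11, 78322968 to 78327781, plus strand) encodes aldolase C, the brain form of a glycolytic enzyme and a marker of astrocytes. It stood at 151, 172 and 169 CPM in the circRNA knockdown, 74.5, 79.8 and 99.7 CPM in the mRNA knockdown, and 51.9, 70.4 and 56.8 CPM in scramble. These 3 groups did not overlap either. Its log2 fold change was 1.46 ± 0.13 (SE, adjusted p = 4.80e-06) in the circRNA knockdown and 0.50 ± 0.12 (SE, adjusted p = 0.0144) in the mRNA knockdown, with a difference of 0.95 ± 0.12 (SE, adjusted p = 1.56e-04) between them. The call in the mRNA knockdown ended without mRNA knockdown replicate 3 (0.37) or scramble replicate 1 (0.41) or 3 (0.47).

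Mt3, a brain metallothionein that binds zinc and copper, stood at 24.5, 27.4 and 25.4 CPM in the circRNA knockdown, 12.6, 15.6 and 19.8 CPM in the mRNA knockdown, and 11.1, 12.7 and 8.86 CPM in scramble. Its circRNA knockdown libraries lay above the 6 others, while 1 mRNA knockdown library fell within the scramble range. Against scramble it was higher by 1.24 ± 0.17 (SE, adjusted p = 1.38e-04) in the circRNA knockdown and 0.55 ± 0.17 (SE, adjusted p = 0.0366) in the mRNA knockdown, and the knockdowns differed by 0.69 ± 0.16 (SE, adjusted p = 0.00742). The mRNA knockdown call of Mt3 ended without circRNA knockdown replicate 1 (0.54) or 2 (0.55), mRNA knockdown replicate 2 (0.57) or 3 (0.37) or scramble replicate 1 (0.57) or 3 (0.42), or with a fit of the 6 compared libraries (0.54) or the replicate block (0.55).

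Slc1a3 encodes GLAST, the glutamate transporter of radial glia and astrocytes. It stood at 103, 118 and 125 CPM in the circRNA knockdown, 112, 79.97 and 104 CPM in the mRNA knockdown, and 63.02, 73.01 and 69.5 CPM in scramble. Both knockdowns lay above scramble in all libraries, and the knockdowns overlapped each other. Slc1a3 had a log2 difference of 0.75 ± 0.12 (SE, adjusted p = 4.77e-04) in the circRNA knockdown and 0.52 ± 0.12 (SE, adjusted p = 0.00815) in the mRNA knockdown, and their difference of 0.23 ± 0.12 (SE, adjusted p = 0.178) was not called. Dbi, which encodes the acyl-CoA binding protein, stood at 132, 175 and 161 CPM in the circRNA knockdown, 105, 103 and 114 CPM in the mRNA knockdown, and 108, 126 and 112 CPM in scramble. Its circRNA knockdown libraries were above all others. Dbi was higher in the circRNA knockdown than in scramble by 0.44 ± 0.10 (SE, adjusted p = 0.00654) and than in the mRNA knockdown by 0.54 ± 0.10 (SE, adjusted p = 0.00194), while the mRNA knockdown differed from scramble by -0.10 ± 0.10 (SE, adjusted p = 0.531).

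Phgdh and Psat1 encode the enzymes of the first and second steps of serine synthesis. Phgdh stood at 77.6, 82.4 and 83.1 CPM in the circRNA knockdown, 60.1, 50.9 and 68.5 CPM in the mRNA knockdown, and 37.5, 62.7 and 60.5 CPM in scramble. Psat1 stood at 99.5, 107 and 105 CPM in the circRNA knockdown, 105, 63.9 and 78.4 CPM in the mRNA knockdown, and 60.6, 73.5 and 88.02 CPM in scramble. The circRNA knockdown libraries of both genes lay above scramble, and those of Psat1 overlapped the mRNA knockdown. The log2 fold change of Phgdh was 0.59 ± 0.16 (SE, adjusted p = 0.0141) in the circRNA knockdown and 0.15 ± 0.16 (SE, adjusted p = 0.549) in the mRNA knockdown. That of Psat1 was 0.49 ± 0.16 (SE, adjusted p = 0.0354) and 0.15 ± 0.16 (SE, adjusted p = 0.557) in the same order. Without circRNA knockdown replicate 2 the call of Phgdh ended (0.58), and without scramble replicate 1 its value was 0.39. The call of Psat1 ended without circRNA knockdown replicate 1 (0.51), 2 (0.46) or 3 (0.48) or scramble replicate 1 (0.36) or 2 (0.48), or with upper-quartile factors (0.43) or the replicate block (0.49).

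Glul and Ddah1 departed from the other metabolic genes. Glul encodes glutamine synthetase, which astrocytes use to clear glutamate. It stood at 109.7, 113 and 117 CPM in the circRNA knockdown, 78.9, 83.6 and 97.2 CPM in the mRNA knockdown, and 133, 138 and 141 CPM in scramble. Scramble had the highest levels and the mRNA knockdown the lowest, with no overlap among the 3 groups. Glul was lower than scramble, with -0.28 ± 0.08 (SE, adjusted p = 0.0231) in the circRNA knockdown and -0.67 ± 0.08 (SE, adjusted p = 1.60e-04) in the mRNA knockdown, and the knockdowns differed by 0.38 ± 0.08 (SE, adjusted p = 0.00468). Leaving out single libraries ended the smaller call without circRNA knockdown replicate 1 (-0.26) or 2 (-0.28) or scramble replicate 2 (-0.28) or 3 (-0.27). Ddah1, an enzyme that degrades the nitric oxide synthase inhibitor dimethylarginine, stood at 62.4, 69.5 and 79.6 CPM in the circRNA knockdown, 96.6, 93.6 and 114 CPM in the mRNA knockdown, and 63.5, 86.98 and 80.4 CPM in scramble. Only the mRNA knockdown lay above the scramble range, by 0.40 ± 0.12 (SE, adjusted p = 0.0417), and the circRNA knockdown was lower than it, at a log2 difference of -0.52 ± 0.12 (SE, adjusted p = 0.00755). Against scramble Ddah1 differed by -0.13 ± 0.12 (SE, adjusted p = 0.485) in the circRNA knockdown. Its mRNA knockdown call ended without circRNA knockdown replicate 1 (0.39) or 2 (0.39), mRNA knockdown replicate 3 (0.30) or scramble replicate 1 (0.28) or 3 (0.43), or with a fit of the 6 compared libraries (0.39).

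**Figure D3:**
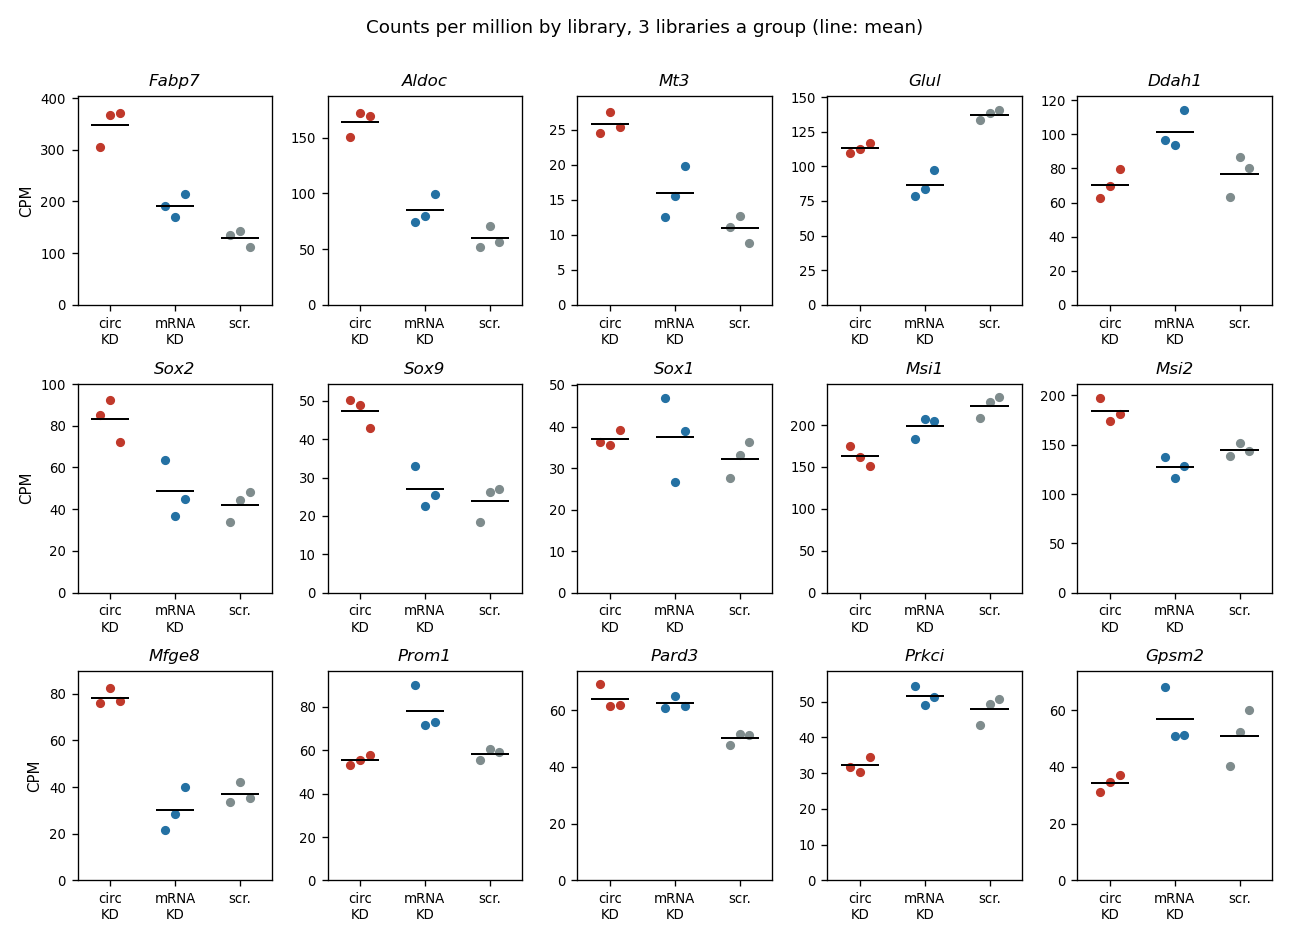
CPM of single genes in each library, with the circRNA knockdown, the mRNA knockdown and scramble side by side (points: libraries, lines: group means, each axis starting at 0). Fabp7 and Aldoc step down over the 3 groups, while Sox2 and Sox9 are high in the circRNA knockdown and overlap between the other groups.

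Of 10 stem cell factors, 4 were higher in the circRNA knockdown than in scramble and 1 was lower, with a median log2 fold change of 0.38. In the mRNA knockdown 1 was higher, with a median of 0.18, and the median difference between the knockdowns was 0.11, with 4 genes higher and 1 lower. The called share was 50.0% in the circRNA knockdown against scramble, beside 27.1% of all genes tested. Between the knockdowns it was 50.0%, beside 26.1%. The 1 call among 10 genes in the mRNA knockdown was a share below the 18.0% of all genes tested. The mRNA knockdown median was -0.02 without its own replicate 1, 0.04 without scramble replicate 1, 0.29 without its own replicate 2 and 0.28 without scramble replicate 3. The median difference was 0.22 without mRNA knockdown replicate 1 and 0.01 without its replicate 2. The metabolic medians of 0.59, 0.40 and 0.44 in the same 3 comparisons stood above these. Summed over the 9 metabolic genes, levels reached 1066 to 1236 CPM in the circRNA knockdown and 739.8 to 909.7 CPM in the mRNA knockdown, against 665 to 785 CPM in scramble. Summed over the 10 stem cell factors they reached 676 to 755 CPM in the circRNA knockdown and 564 to 668 CPM in the mRNA knockdown, against 550.3 to 681 CPM in scramble. The sums of the metabolic genes in the circRNA knockdown lay above all other libraries, whereas those of the stem cell factors overlapped scramble. A sum gives most weight to the genes of highest level, such as Msi1 and Msi2. By mean log2 CPM the stem cell factors reached 5.54 to 5.64 in the circRNA knockdown and 5.201 to 5.601 in the mRNA knockdown, against 5.015 to 5.399 in scramble. On that measure the circRNA knockdown lay above scramble without overlap. No test was made of the difference between the lists.

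Sox2 (chromosome 3, 34650405 to 34652461, plus strand) encodes the SoxB1 factor that maintains neural stem cells. It stood at 85.2, 92.5 and 72.3 CPM in the circRNA knockdown, 63.8, 36.95 and 45.1 CPM in the mRNA knockdown, and 33.9, 44.6 and 48.1 CPM in scramble. The circRNA knockdown lay above all 6 other libraries, which overlapped. Its log2 fold change was 0.98 ± 0.18 (SE, adjusted p = 0.00131) in the circRNA knockdown and 0.20 ± 0.18 (SE, adjusted p = 0.478) in the mRNA knockdown, and the knockdowns differed by 0.78 ± 0.18 (SE, adjusted p = 0.00603). The other SoxB1 factors did not pass the test in any comparison by edgeR. Sox1 stood at 36.2, 35.5 and 39.1 CPM in the circRNA knockdown, 46.9, 26.6 and 38.8 CPM in the mRNA knockdown, and 27.6, 33.1 and 36.2 CPM in scramble, with log2 fold changes of 0.19 in the circRNA knockdown and 0.21 in the mRNA knockdown (adjusted p = 0.431 and 0.418). Sox3 stood at 14.04, 17.4 and 13.2 CPM in the circRNA knockdown, 17.7, 14.4 and 16.7 CPM in the mRNA knockdown, and 12.1, 19.7 and 18.5 CPM in scramble, with values of -0.18 and -0.05 in the same order (adjusted p = 0.472 and 0.879). The libraries of both genes overlapped between all pairs of groups.

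Sox9 (chromosome 11, 112782224 to 112787760, plus strand), a SoxE factor needed for neural stem cells and later for glia, stood at 50.3, 48.98 and 42.98 CPM in the circRNA knockdown, 32.9, 22.6 and 25.5 CPM in the mRNA knockdown, and 18.5, 26.3 and 27.05 CPM in scramble. As with Sox2, the circRNA knockdown lay above all other libraries. Sox9 had a log2 difference of 0.98 ± 0.16 (SE, adjusted p = 5.46e-04) in the circRNA knockdown and 0.17 ± 0.16 (SE, adjusted p = 0.512) in the mRNA knockdown, with a difference of 0.81 ± 0.16 (SE, adjusted p = 0.00212). Sox21, a SoxB2 factor that counteracts SoxB1 proteins, stood at 63.5, 58.7 and 55.4 CPM in the circRNA knockdown, 44.3, 34.9 and 44.1 CPM in the mRNA knockdown, and 28.2, 37.7 and 40.8 CPM in scramble. It was also highest in all 3 libraries of the circRNA knockdown. Against scramble Sox21 differed by 0.73 ± 0.13 (SE, adjusted p = 0.00135) in the circRNA knockdown and 0.20 ± 0.13 (SE, adjusted p = 0.319) in the mRNA knockdown, and the knockdowns differed by 0.53 ± 0.13 (SE, adjusted p = 0.0108). Sox21 shares 18.8% of its exon bases with the annotated gene Gm4675, which was read at 1.01 to 2.01 CPM.

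The Musashi RNA-binding proteins, which act in stem cell maintenance, went opposite ways in the circRNA knockdown. Msi1 stood at 175, 162 and 151 CPM in the circRNA knockdown, 184, 208 and 205 CPM in the mRNA knockdown, and 209, 227 and 233 CPM in scramble. Msi2 stood at 198, 174 and 181 CPM in the circRNA knockdown, 138, 117 and 129 CPM in the mRNA knockdown, and 138, 151 and 144 CPM in scramble. Msi1 lay below and Msi2 above every scramble and mRNA knockdown library. Against scramble the log2 fold change of Msi1 was -0.46 ± 0.08 (SE, adjusted p = 0.00137) and that of Msi2 was 0.35 ± 0.08 (SE, adjusted p = 0.00702) in the circRNA knockdown. The circRNA knockdown also differed from the mRNA knockdown, by -0.29 ± 0.08 (SE, adjusted p = 0.0218) for Msi1 and 0.53 ± 0.08 (SE, adjusted p = 5.60e-04) for Msi2. With mRNA knockdown neither gene was called against scramble (-0.17 for Msi1 and -0.18 for Msi2). The direct call of Msi1 ended without circRNA knockdown replicate 2 (-0.28) or 3 (-0.24) or mRNA knockdown replicate 2 (-0.25) or 3 (-0.26).

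Hopx, a small homeodomain protein and marker of outer radial glia, was the stem cell factor called in the mRNA knockdown. It stood at 3.13, 4.48 and 4.94 CPM in the circRNA knockdown, 7.34, 5.74 and 5.51 CPM in the mRNA knockdown, and 3.78, 2.56 and 2.93 CPM in scramble. Every library of the mRNA knockdown lay above the other 6, at a low level. Hopx differed from scramble by 1.01 ± 0.23 (SE, adjusted p = 0.00733) in the mRNA knockdown and 0.45 ± 0.23 (SE, adjusted p = 0.164) in the circRNA knockdown, and the difference between them of -0.57 ± 0.22 (SE, adjusted p = 0.0699) was not called. Nr2e1 (the nuclear receptor Tlx of adult and embryonic neural stem cells) stood at 72.1, 73.8 and 68.9 CPM in the circRNA knockdown, 78.8, 58.6 and 67.2 CPM in the mRNA knockdown, and 49.6, 67.8 and 82.2 CPM in scramble. Tfap2c, a transcription factor of apical progenitors, stood at 57.7, 51.3 and 47.3 CPM in the circRNA knockdown, 54.6, 40.1 and 46.9 CPM in the mRNA knockdown, and 29.6, 38.98 and 48.3 CPM in scramble. Both overlapped in all pairs of groups. Neither passed edgeR's test, with log2 fold changes in the circRNA knockdown of 0.10 ± 0.15 (SE, adjusted p = 0.655) for Nr2e1 and 0.41 ± 0.16 (SE, adjusted p = 0.0669) for Tfap2c. DESeq2 called Tfap2c higher there (0.42, adjusted p = 0.033). So did edgeR with no filter (0.41) or without mRNA knockdown replicate 1 (0.42) or scramble replicate 3 (0.60).

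Genes of filaments and the cell surface were higher in 5 of 8 cases in the circRNA knockdown than in scramble, with a median log2 fold change of 0.56. With mRNA knockdown 3 of 8 were higher, with a median of 0.16. Between the knockdowns 3 were higher and 1 lower in the circRNA knockdown, with a median of 0.21. The called shares were 62.5%, 37.5% and 50.0% in that order, beside 27.1%, 18.0% and 26.1% of all genes tested. Mfge8 and Ttyh1 had the largest differences between the knockdowns of all 38 genes. Mfge8 (chromosome 7, 79133768 to 79149060, minus strand), a secreted protein that bridges cells to phosphatidylserine and integrins, stood at 75.8, 82.2 and 76.98 CPM in the circRNA knockdown, 21.6, 28.5 and 39.8 CPM in the mRNA knockdown, and 33.4, 42.3 and 35.2 CPM in scramble. Mfge8 differed from scramble by 1.08 ± 0.17 (SE, adjusted p = 4.44e-04) in the circRNA knockdown and -0.30 ± 0.17 (SE, adjusted p = 0.243) in the mRNA knockdown, and the knockdowns differed by 1.39 ± 0.17 (SE, adjusted p = 9.78e-05). Ttyh1 (chromosome 7, 4119408 to 4136708, plus strand), a membrane protein that promotes Notch activity in neural stem cells of the mouse, stood at 145, 148 and 129 CPM in the circRNA knockdown, 74.2, 67.97 and 70.4 CPM in the mRNA knockdown, and 58.8, 70.1 and 81.3 CPM in scramble. Its log2 fold change was 1.00 ± 0.11 (SE, adjusted p = 2.28e-05) in the circRNA knockdown and 0.01 ± 0.11 (SE, adjusted p = 0.947) in the mRNA knockdown, with a difference of 0.99 ± 0.11 (SE, adjusted p = 3.79e-05). Both genes lay in the circRNA knockdown above all other libraries.

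Ednrb, the endothelin receptor B, and Veph1, a cytoplasmic protein of the ventricular zone, were called in both knockdowns. Ednrb stood at 22.8, 23.8 and 30.1 CPM in the circRNA knockdown, 24.2, 17.6 and 23.8 CPM in the mRNA knockdown, and 12.1, 13.2 and 13.3 CPM in scramble. It lay above scramble in 6 of 6 knockdown libraries, by 0.99 ± 0.15 (SE, adjusted p = 2.81e-04) in the circRNA knockdown and 0.76 ± 0.15 (SE, adjusted p = 0.00306) in the mRNA knockdown. Veph1 stood at 13.7, 15.3 and 19.8 CPM in the circRNA knockdown, 16.5, 11.8 and 18.4 CPM in the mRNA knockdown, and 9.23, 10.9 and 11.3 CPM in scramble. Its 6 knockdown libraries also lay above scramble, by 0.63 ± 0.18 (SE, adjusted p = 0.0184) in the circRNA knockdown and 0.57 ± 0.18 (SE, adjusted p = 0.0429) in the mRNA knockdown. For neither gene was the difference between the knockdowns called (0.23 for Ednrb and 0.06 for Veph1). The Veph1 call in the circRNA knockdown ended without circRNA knockdown replicate 3 (0.47) or scramble replicate 1 (0.55). Its mRNA knockdown call ended without circRNA knockdown replicate 2 (0.56), mRNA knockdown replicate 1 (0.53) or 3 (0.43) or scramble replicate 1 (0.49), 2 (0.60) or 3 (0.62), or with a fit of the 6 compared libraries (0.56).

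Nes and Vim encode nestin and vimentin, the intermediate filaments of radial glia. Nes stood at 182, 190.3 and 208 CPM in the circRNA knockdown, 119, 101 and 137 CPM in the mRNA knockdown, and 113, 155 and 164 CPM in scramble. Vim stood at 437, 474 and 442 CPM in the circRNA knockdown, 432, 339.6 and 403 CPM in the mRNA knockdown, and 326, 469 and 489 CPM in scramble. Nes was highest in the circRNA knockdown without overlap, and Vim overlapped between each knockdown and scramble, while its circRNA knockdown libraries lay just above the mRNA knockdown. The log2 fold change of Nes was 0.43 ± 0.13 (SE, adjusted p = 0.0305) in the circRNA knockdown and -0.27 ± 0.14 (SE, adjusted p = 0.185) in the mRNA knockdown, with a difference of 0.70 ± 0.14 (SE, adjusted p = 0.00219). That of Vim was 0.08 ± 0.13 (SE, adjusted p = 0.712) and -0.13 ± 0.13 (SE, adjusted p = 0.549) in the same order. Against scramble the Nes call ended without circRNA knockdown replicate 1 (0.47), 2 (0.44) or 3 (0.38) or scramble replicate 1 (0.28) or 2 (0.49), or with upper-quartile factors (0.37).

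Prom1 (prominin 1, a protein of apical membrane protrusions) stood at 53.1, 55.7 and 57.7 CPM in the circRNA knockdown, 89.9, 71.7 and 72.9 CPM in the mRNA knockdown, and 55.7, 60.6 and 59.1 CPM in scramble. It was above all other libraries in the mRNA knockdown, by 0.42 ± 0.10 (SE, adjusted p = 0.00842) against scramble. The circRNA knockdown differed from scramble by -0.08 ± 0.10 (SE, adjusted p = 0.595) and was lower than the mRNA knockdown, at a log2 difference of -0.49 ± 0.09 (SE, adjusted p = 0.00208). Ptprz1, a receptor tyrosine phosphatase of radial glia, stood at 341, 408 and 507 CPM in the circRNA knockdown, 265, 390.1 and 452 CPM in the mRNA knockdown, and 429, 268 and 203 CPM in scramble. Its scramble libraries spread with a coefficient of variation of 38.7%. The log2 fold changes were 0.48 ± 0.24 (SE, adjusted p = 0.160) in the circRNA knockdown and 0.30 ± 0.24 (SE, adjusted p = 0.429) in the mRNA knockdown, neither of them called.

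Polarity genes had medians near 0. Of 7, 1 was higher and 3 were lower in the circRNA knockdown than in scramble, with a median log2 fold change of 0.01. In the mRNA knockdown 1 was higher, with a median of 0.11, and between the knockdowns 1 was higher and 2 lower in the circRNA knockdown. Called shares were 57.1%, 14.3% and 42.9% in that order, beside 27.1%, 18.0% and 26.1% of all genes tested. That of the mRNA knockdown was near the share of all genes. Prkci (chromosome 3, 30995747 to 31052959, plus strand) encodes the atypical protein kinase C iota of the apical Par complex. It stood at 31.6, 30.4 and 34.6 CPM in the circRNA knockdown, 54.4, 49.1 and 51.2 CPM in the mRNA knockdown, and 43.5, 49.4 and 50.7 CPM in scramble. The circRNA knockdown lay below all other libraries. Its log2 fold change was -0.57 ± 0.09 (SE, adjusted p = 5.50e-04) in the circRNA knockdown and 0.11 ± 0.09 (SE, adjusted p = 0.466) in the mRNA knockdown, and the knockdowns differed by -0.68 ± 0.09 (SE, adjusted p = 1.97e-04). Gpsm2 (chromosome 3, 108678638 to 108722309, minus strand), the LGN protein that orients the mitotic spindle, stood at 31.1, 34.6 and 37.3 CPM in the circRNA knockdown, 68.3, 50.9 and 51.3 CPM in the mRNA knockdown, and 40.3, 52.4 and 59.96 CPM in scramble. It too was lowest in all libraries of the circRNA knockdown. Gpsm2 differed from scramble by -0.57 ± 0.15 (SE, adjusted p = 0.0115) in the circRNA knockdown and 0.16 ± 0.15 (SE, adjusted p = 0.506) in the mRNA knockdown, with a difference of -0.73 ± 0.15 (SE, adjusted p = 0.00297). The Gpsm2 call against scramble ended without circRNA knockdown replicate 1 (-0.51) or scramble replicate 3 (-0.44). Gpsm2 shares 5.19% of its exon bases with Clcc1 on the opposite strand, which was read at 27.8 to 38.9 CPM, and whether counting used the strand is not given in the sources used here.

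Pard3, the scaffold of the Par complex, stood at 69.04, 61.4 and 61.6 CPM in the circRNA knockdown, 60.7, 65.1 and 61.3 CPM in the mRNA knockdown, and 47.7, 51.4 and 51.1 CPM in scramble. It lay above scramble in 6 of 6 knockdown libraries, by 0.35 ± 0.08 (SE, adjusted p = 0.00568) in the circRNA knockdown and 0.32 ± 0.08 (SE, adjusted p = 0.0165) in the mRNA knockdown. The mRNA knockdown call of Pard3 ended without mRNA knockdown replicate 2 (0.28) or scramble replicate 1 (0.28) or 2 (0.34). Its relative Pard3b stood at 5.81, 4.54 and 6.62 CPM in the circRNA knockdown, 5.80, 5.12 and 5.57 CPM in the mRNA knockdown, and 3.44, 4.31 and 4.54 CPM in scramble. Its mRNA knockdown libraries lay above scramble and the lowest circRNA knockdown library stood level with the highest scramble library. Neither difference was called (0.46 ± 0.19 (SE, adjusted p = 0.0843) in the circRNA knockdown and 0.42 ± 0.19 (SE, adjusted p = 0.142) in the mRNA knockdown). Llgl1, a homologue of the fly tumour suppressor lethal giant larvae that acts on the basolateral side, stood at 200.3, 190.1 and 186 CPM in the circRNA knockdown, 188, 225 and 212 CPM in the mRNA knockdown, and 216, 229 and 233 CPM in scramble. It was lower in the circRNA knockdown, at a log2 difference of -0.23 ± 0.08 (SE, adjusted p = 0.0454), and differed by -0.12 ± 0.08 (SE, adjusted p = 0.345) in the mRNA knockdown. The Llgl1 call ended without circRNA knockdown replicate 1 (-0.27), 2 (-0.23) or 3 (-0.21), mRNA knockdown replicate 3 (-0.23) or scramble replicate 1 (-0.27), 2 (-0.22) or 3 (-0.21), or with RLE factors (-0.23), no filter (-0.23) or the replicate block (-0.23). Llgl1 shares 1.32% of its exon bases with Flii, read at 66.9 to 88.5 CPM.

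Numb and Numbl encode adaptor proteins that counteract Notch and hold the apical junctions of radial glia. Numb stood at 19.8, 21.2 and 18.9 CPM in the circRNA knockdown, 17.9, 17.9 and 17.3 CPM in the mRNA knockdown, and 19.7, 20.2 and 19.6 CPM in scramble. Numbl stood at 131, 101 and 86.3 CPM in the circRNA knockdown, 65.4, 87.6 and 81.2 CPM in the mRNA knockdown, and 92.5, 101 and 92.4 CPM in scramble. Both genes were below every scramble library in the mRNA knockdown. Neither was called against scramble, with log2 fold changes in the circRNA knockdown of 0.01 ± 0.10 (SE, adjusted p = 0.967) for Numb and 0.15 ± 0.14 (SE, adjusted p = 0.447) for Numbl. With mRNA knockdown the values were -0.17 ± 0.10 (SE, adjusted p = 0.266) for Numb and -0.29 ± 0.14 (SE, adjusted p = 0.169) for Numbl. Numbl was higher in the circRNA knockdown than in the mRNA knockdown by 0.44 ± 0.14 (SE, adjusted p = 0.0308), although circRNA knockdown replicate 3 lay below mRNA knockdown replicate 2. That call ended without circRNA knockdown replicate 1 (0.27) or 2 (0.49) or mRNA knockdown replicate 1 (0.33) or 3 (0.48), or with the replicate block (0.44).

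Hippo pathway members differed little between the groups. By edgeR, 0 of 4 were called in the circRNA knockdown against scramble, where 1 had an unadjusted p under 0.05 and DESeq2 called 0, and the median log2 fold change was 0.15. In the other knockdown 1 was higher, with a median of 0.21, and between the knockdowns 1 was lower, with a median of -0.15. The last 2 counts are shares of 25.0% and 25.0%, beside 18.0% and 26.1% of all genes tested, where 27.1% were called in the circRNA knockdown against scramble. Yap1 (chromosome 9, 7931999 to 8004596, minus strand) stood at 26.2, 29.5 and 29.9 CPM in the circRNA knockdown, 36.4, 21.6 and 25.3 CPM in the mRNA knockdown, and 20.4, 24.5 and 28.5 CPM in scramble. Its log2 fold change was 0.22 ± 0.17 (SE, adjusted p = 0.383) in the circRNA knockdown and 0.18 ± 0.17 (SE, adjusted p = 0.517) in the mRNA knockdown. Wwtr1 stood at 21.4, 26.1 and 23.6 CPM in the circRNA knockdown, 31.2, 20.5 and 26.9 CPM in the mRNA knockdown, and 14.2, 18.3 and 21.98 CPM in scramble. Its difference of 0.52 ± 0.17 (SE, adjusted p = 0.04996) in the mRNA knockdown lay at the threshold, and the circRNA knockdown differed by 0.38 ± 0.17 (SE, adjusted p = 0.119). The Wwtr1 call ended without circRNA knockdown replicate 1 (0.51), 2 (0.51) or 3 (0.53), mRNA knockdown replicate 1 (0.38) or 3 (0.50) or scramble replicate 1 (0.38) or 2 (0.53), or with RLE factors (0.52), upper-quartile factors (0.52), a fit of the 6 compared libraries (0.51) or the replicate block (0.53). Tead1 stood at 83.02, 83.96 and 89.1 CPM in the circRNA knockdown, 92.7, 84.2 and 108 CPM in the mRNA knockdown, and 79.4, 80.7 and 82.7 CPM in scramble. Its 6 knockdown libraries lay above scramble by a little, with log2 fold changes of 0.08 ± 0.09 (SE, adjusted p = 0.569) in the circRNA knockdown and 0.23 ± 0.09 (SE, adjusted p = 0.0931) in the mRNA knockdown. Tead2, the Tead factor of early neural progenitors, stood at 110.0, 122 and 107 CPM in the circRNA knockdown, 130.0, 131 and 141 CPM in the mRNA knockdown, and 112, 131 and 126 CPM in scramble. It was lower in the circRNA knockdown than in the mRNA knockdown, at a log2 difference of -0.25 ± 0.08 (SE, adjusted p = 0.0433), and the call ended without circRNA knockdown replicate 1 (-0.22) or 3 (-0.21), mRNA knockdown replicate 2 (-0.26) or 3 (-0.20) or scramble replicate 2 (-0.24) or 3 (-0.25), or with RLE factors (-0.24), no filter (-0.24) or a fit of the 6 compared libraries (-0.25). Against scramble Tead2 differed by -0.12 in the circRNA knockdown and 0.12 in the mRNA knockdown (adjusted p = 0.309 and 0.330).

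The other genes of the pathway were taken from a list of 22, of which 20 were tested. In the circRNA knockdown 7 were higher and 3 lower than scramble, with a median log2 fold change of 0.19. Of the same 20, 1 was higher and 2 were lower in the mRNA knockdown, with a median of -0.05. The called shares were 50.0% in the circRNA knockdown and 15.0% in the mRNA knockdown, beside 27.1% and 18.0% of all genes tested. The genes of this list described below are all among the 7 called higher, and the 3 called lower are not described. Ankrd1 of the same list had 0 counts in all 9 libraries. Frmd6, a FERM protein upstream of the kinases, stood at 38.5, 43.8 and 38.8 CPM in the circRNA knockdown, 10.3, 12.5 and 17.9 CPM in the mRNA knockdown, and 14.1, 10.4 and 9.35 CPM in scramble, and was higher by 1.85 ± 0.19 (SE, adjusted p = 1.80e-05) in the circRNA knockdown. Lats1, the kinase that phosphorylates Yap1, stood at 147, 140.4 and 148 CPM in the circRNA knockdown, 110.1, 106 and 113 CPM in the mRNA knockdown, and 91.7, 92.3 and 89.3 CPM in scramble. It was higher in the circRNA knockdown by 0.67 ± 0.07 (SE, adjusted p = 1.52e-05) and in the mRNA knockdown by 0.27 ± 0.07 (SE, adjusted p = 0.0150), and the knockdowns differed by 0.40 ± 0.07 (SE, adjusted p = 8.80e-04). The mRNA knockdown call of Lats1 ended without mRNA knockdown replicate 3 (0.25) or scramble replicate 2 (0.28) or 3 (0.26). Ccn1 and Ccn2 (CYR61 and CTGF), matricellular proteins, are widely used targets of Yap1 with Tead. Ccn1 stood at 50.8, 53.4 and 48.95 CPM in the circRNA knockdown, 24.6, 18.99 and 23.3 CPM in the mRNA knockdown, and 16.3, 30.6 and 28.7 CPM in scramble, and was higher in the circRNA knockdown by 1.01 ± 0.18 (SE, adjusted p = 0.00117). Ccn2 stood at 8.68, 9.13 and 6.86 CPM in the circRNA knockdown, 1.28, 2.24 and 3.32 CPM in the mRNA knockdown, and 1.67, 1.91 and 2.78 CPM in scramble, higher in the circRNA knockdown by 1.94 ± 0.30 (SE, adjusted p = 4.11e-04). Their circRNA knockdown libraries did not overlap any other. Under mRNA knockdown Ccn1 differed from scramble by -0.18 and Ccn2 by 0.09 (adjusted p = 0.532 and 0.874). Endothelial cells and pericytes also make both proteins. The 6 endothelial markers summed to 0.604 to 1.52 CPM in the circRNA knockdown and 0.865 to 1.16 CPM in the mRNA knockdown, against 1.46 to 4.01 CPM in scramble. Among 4 pericyte markers, Pdgfrb stood at 3.26, 3.50 and 4.38 CPM in the circRNA knockdown, 1.28, 1.75 and 1.94 CPM in the mRNA knockdown, and 1.77, 1.26 and 1.27 CPM in scramble, higher in the circRNA knockdown by 1.39 ± 0.26 (SE, adjusted p = 0.00167), and the other 3 summed to less than 1 CPM there. Rgs5, the other pericyte marker tested, stood at 0.134, 0.601 and 0.626 CPM in the circRNA knockdown, 0.279, 0.432 and 0.637 CPM in the mRNA knockdown, and 2.01, 0.357 and 1.17 CPM in scramble, with a log2 difference of -1.35 in the circRNA knockdown (adjusted p = 0.142). The part of pericytes in the Ccn1 and Ccn2 values was not tested.

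Sequence with the TEAD letters is printed for 3 members and for Ccn1, to set their promoters beside the values above. Each line is a stretch of 60 bases from the RefSeq promoter windows (GRCm38.p6), 5′ to 3′ on the strand of the gene, with the TEAD letters in capitals. The windows lie at chr3:30995700-30995759, plus strand for Prkci, chr9:8004705-8004764, minus strand for Yap1, chr3:57576014-57576073, minus strand for Wwtr1 and chr3:145650056-145650115, minus strand for Ccn1.
Prkci: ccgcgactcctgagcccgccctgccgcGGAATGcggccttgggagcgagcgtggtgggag
Yap1: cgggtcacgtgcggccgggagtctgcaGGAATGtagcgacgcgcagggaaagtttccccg
Wwtr1: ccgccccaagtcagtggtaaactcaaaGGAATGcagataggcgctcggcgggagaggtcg
Ccn1: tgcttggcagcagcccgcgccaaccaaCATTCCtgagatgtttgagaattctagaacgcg
The letters start at -44 in Prkci, -141 in Yap1, -136 in Wwtr1 and -103 in Ccn1. Veph1 and Aldoc are the other members with them. Of these genes, Prkci was lower, Ccn1, Aldoc and Veph1 higher and Yap1 and Wwtr1 not called in the circRNA knockdown.

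**Figure D4:**
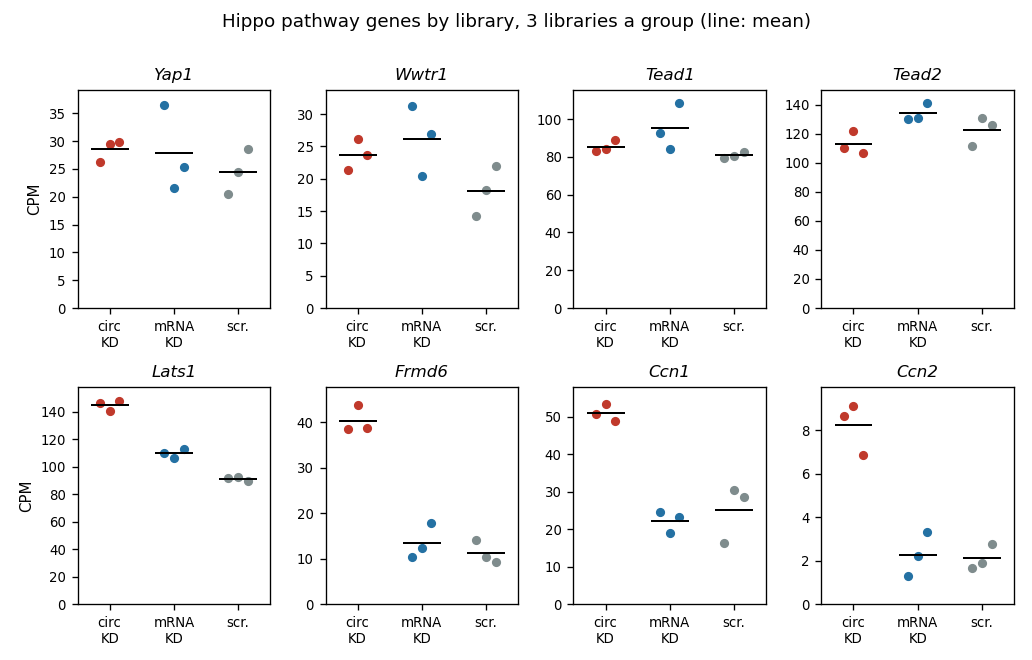
CPM of Hippo pathway genes in each library, with the circRNA knockdown, the mRNA knockdown and scramble side by side (points: libraries, lines: group means, each axis starting at 0). Lats1, Frmd6, Ccn1 and Ccn2 are high in the 3 circRNA knockdown libraries, while Yap1, Wwtr1 and Tead2 overlap between each knockdown and scramble.

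Other radial glia genes were taken from a list of 26. In the circRNA knockdown 16 were higher than scramble and 0 lower by edgeR, with 0 lower at an unadjusted p under 0.05 and 0 by DESeq2, and a median log2 fold change of 0.61. For the mRNA knockdown the counts were 3 higher and 1 lower, with a median of 0.14. These are shares of 61.5% in the circRNA knockdown and 15.4% in the mRNA knockdown, beside 27.1% and 18.0% of all genes. Between the knockdowns 14 were higher in the circRNA knockdown (53.8%, beside 26.1% of all genes called in either direction), with a median of 0.39. Tnc, the matrix protein tenascin C of the stem cell niche, stood at 457, 449.9 and 472 CPM in the circRNA knockdown, 53.6, 52.4 and 85.4 CPM in the mRNA knockdown, and 41.1, 48.1 and 22.3 CPM in scramble. That was 3.63 ± 0.25 (SE, adjusted p = 8.53e-07) above scramble in the circRNA knockdown and 0.78 ± 0.23 (SE, adjusted p = 0.0328) in the mRNA knockdown, where the call ended without circRNA knockdown replicate 2 (0.77), mRNA knockdown replicate 3 (0.52) or scramble replicate 1 (0.86) or 3 (0.52), or with DESeq2 (0.77), a fit of the 6 compared libraries (0.77) or the replicate block (0.79). Vcam1, an adhesion molecule of neural stem cells, stood at 37.3, 43.9 and 36.01 CPM in the circRNA knockdown, 13.4, 10.7 and 13.54 CPM in the mRNA knockdown, and 10.8, 11.7 and 10.2 CPM in scramble, with log2 fold changes of 1.84 ± 0.13 (SE, adjusted p = 8.53e-07) in the circRNA knockdown and 0.20 ± 0.13 (SE, adjusted p = 0.297) in the mRNA knockdown. Axl, a receptor tyrosine kinase, was higher by 1.15 ± 0.14 (SE, adjusted p = 5.13e-05) and Pea15a, an astroglial phosphoprotein, by 0.64 ± 0.09 (SE, adjusted p = 1.39e-04) in the circRNA knockdown. In the mRNA knockdown the values were 0.30 for Axl and -0.14 for Pea15a (adjusted p = 0.151 and 0.292).

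Genes of astroglial maturation (17 listed, 14 tested) included 11 higher in the circRNA knockdown, with a median log2 fold change of 0.65, and 2 higher and 1 lower in the mRNA knockdown, with a median of 0.11. Called shares came to 78.6% in the circRNA knockdown and 21.4% in the mRNA knockdown, beside 27.1% and 18.0% of all genes tested. The share in the mRNA knockdown was thus near that of all genes. S100b, Agt and Gjb6, markers of mature astrocytes, had 0 counts in all 9 libraries. Aqp4, the astrocyte water channel, stood at 3.40, 2.51 and 3.02 CPM in the circRNA knockdown, 0.753, 0.405 and 0.748 CPM in the mRNA knockdown, and 0.383, 0.421 and 0.772 CPM in scramble, with a log2 difference of 2.47 ± 0.36 (SE, adjusted p = 2.78e-04) in the circRNA knockdown and 0.24 ± 0.38 (SE, adjusted p = 0.708) in the mRNA knockdown. Fgfr3 stood at 161, 139.7 and 108 CPM in the circRNA knockdown, 57.9, 59.7 and 73.9 CPM in the mRNA knockdown, and 52.8, 75.1 and 72.99 CPM in scramble. Ntrk2 stood at 77.9, 85.6 and 79.2 CPM in the circRNA knockdown, 43.8, 43.2 and 51.7 CPM in the mRNA knockdown, and 45.04, 62.5 and 54.99 CPM in scramble. Fgfr3, a receptor of fibroblast growth factors, and Ntrk2, the receptor TrkB, were higher in the circRNA knockdown by 1.02 ± 0.16 (SE, adjusted p = 3.95e-04) and 0.58 ± 0.11 (SE, adjusted p = 0.00232). Aldh1l1, a folate enzyme of astrocytes, was higher there by 1.48 ± 0.28 (SE, adjusted p = 0.00192). Between the knockdowns it differed by 0.84 ± 0.27 (SE, adjusted p = 0.0369), a call that ended without circRNA knockdown replicate 1 (0.88) or 3 (0.52) or mRNA knockdown replicate 1 (0.78) or 2 (0.72). The 6 astrocyte markers summed to 41.4 to 53.4 CPM in the circRNA knockdown and 20.3 to 36.7 CPM in the mRNA knockdown, against 20.4 to 28.5 CPM in scramble.

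Of 26 tested genes of apical junctions and polarity (27 listed), 7 were higher and 3 lower in the circRNA knockdown, with a median log2 fold change of 0.08, and 3 were higher and 2 lower in the mRNA knockdown, with a median of 0.00. The share called was 38.5% in the circRNA knockdown, beside 27.1% of all genes, and the 19.2% of the mRNA knockdown was near the 18.0% of all genes. Fat4, a giant cadherin of the apical surface, stood at 243, 216 and 254 CPM in the circRNA knockdown, 297, 291 and 302 CPM in the mRNA knockdown, and 173, 182 and 178 CPM in scramble. It was higher in both knockdowns, by 0.42 ± 0.08 (SE, adjusted p = 0.00137) in the circRNA knockdown and 0.74 ± 0.08 (SE, adjusted p = 3.97e-05) in the mRNA knockdown, and lower in the circRNA knockdown than in the mRNA knockdown, at a log2 difference of -0.32 ± 0.08 (SE, adjusted p = 0.00830). Crb2, the Crumbs protein of the apical membrane, stood at 26.6, 27.1 and 24.9 CPM in the circRNA knockdown, 10.2, 13.8 and 14.8 CPM in the mRNA knockdown, and 9.52, 15.2 and 15.53 CPM in scramble, with a log2 difference of 0.95 ± 0.18 (SE, adjusted p = 0.00148) in the circRNA knockdown and -0.06 ± 0.18 (SE, adjusted p = 0.860) in the mRNA knockdown. Afdn (afadin of the adherens junction) was higher in the circRNA knockdown by 0.46 ± 0.08 (SE, adjusted p = 9.08e-04) and the scaffold Dlg5 by 0.42 ± 0.09 (SE, adjusted p = 0.00260).

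Genes beside Phgdh and Psat1 in serine and glycine metabolism numbered 7. In the circRNA knockdown 1 was higher and 4 were lower than scramble, with a median log2 fold change of -0.64. Under mRNA knockdown 2 were lower, with a median of 0.04. That made 71.4% called in the circRNA knockdown and 28.6% in the mRNA knockdown, beside 27.1% and 18.0% of all genes tested. Slc1a4, a transporter of serine and other neutral amino acids, stood at 21.4, 22.2 and 21.3 CPM in the circRNA knockdown, 31.95, 38.03 and 33.6 CPM in the mRNA knockdown, and 40.6, 42.9 and 46.1 CPM in scramble. It was lower in both knockdowns, at a log2 difference of -0.999 ± 0.10 (SE, adjusted p = 1.03e-05) in the circRNA knockdown and -0.32 ± 0.10 (SE, adjusted p = 0.0324) in the mRNA knockdown, with a difference of -0.68 ± 0.10 (SE, adjusted p = 2.70e-04). The mRNA knockdown call of Slc1a4 ended without mRNA knockdown replicate 1 (-0.27) or 3 (-0.30) or scramble replicate 2 (-0.33) or 3 (-0.27). Slc1a5, the glutamine transporter, stood at 6.84, 9.73 and 6.59 CPM in the circRNA knockdown, 19.3, 14.9 and 14.3 CPM in the mRNA knockdown, and 14.4, 18.3 and 14.4 CPM in scramble, lower in the circRNA knockdown, at a log2 difference of -1.03 ± 0.18 (SE, adjusted p = 8.66e-04). Shmt2, the mitochondrial enzyme that turns serine into glycine, was lower there, at a log2 difference of -0.64 ± 0.09 (SE, adjusted p = 1.50e-04). Gldc, which cleaves glycine, was higher by 0.76 ± 0.14 (SE, adjusted p = 0.00112), and differed between the knockdowns by 0.44 ± 0.13 (SE, adjusted p = 0.0269), a call that ended without circRNA knockdown replicate 2 (0.38) or mRNA knockdown replicate 2 (0.41) or 3 (0.40), or with the replicate block (0.44).

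Markers of other cells in the cortex were measured beside these genes. Of 9 markers of basal progenitors, 5 were lower in the circRNA knockdown than in scramble and 2 in the mRNA knockdown, with median log2 fold changes of -0.34 and 0.01. The called shares were 55.6% in the circRNA knockdown and 22.2% in the mRNA knockdown, beside 27.1% and 18.0% of all genes tested. The 9 markers summed to 1208 to 1442 CPM in the circRNA knockdown and 1588 to 1667 CPM in the mRNA knockdown, against 1638 to 1784 CPM in scramble. Eomes, the defining factor of basal progenitors, stood at 351, 360.5 and 298 CPM in the circRNA knockdown, 488, 513 and 530.0 CPM in the mRNA knockdown, and 447, 473 and 436 CPM in scramble. It was lower in the circRNA knockdown, at a log2 difference of -0.43 ± 0.08 (SE, adjusted p = 0.00223), and differed by 0.175 (adjusted p = 0.1698) in the mRNA knockdown. Neurog1 was lower, at a log2 difference of -1.64 ± 0.23 (SE, adjusted p = 1.95e-04) and Sstr2 at -0.65 ± 0.09 (SE, adjusted p = 2.08e-04). The 11 markers of neurons summed to 5353 to 5626 CPM in the circRNA knockdown and 4685 to 5299 CPM in the mRNA knockdown, against 5646 to 6815 CPM in scramble. Of these, 3 were higher and 3 lower in the circRNA knockdown (median -0.13), and 2 were higher and 3 lower in the mRNA knockdown (median -0.29). These are shares of 54.5% and 45.5%, beside 27.1% and 18.0% of all genes tested. Dcx (doublecortin) was lower in both knockdowns, at a log2 difference of -0.63 ± 0.10 (SE, adjusted p = 7.01e-04) in the circRNA knockdown and -0.58 ± 0.10 (SE, adjusted p = 0.00195) in the mRNA knockdown. The 8 microglial markers summed to 6.22 to 11.6 CPM in the circRNA knockdown and 2.96 to 7.90 CPM in the mRNA knockdown, against 2.59 to 4.73 CPM in scramble. The part of these cells in the values of the radial glia genes was not tested. Erythroid, interneuron, oligodendrocyte precursor, meningeal and choroid plexus markers each summed to at most 22.3 CPM in any library, with Ttr of the choroid plexus at 0.772 CPM or less. Among them Olig2 stood at 1.68, 1.64 and 0.939 CPM in the circRNA knockdown, 1.45, 0.324 and 0.859 CPM in the mRNA knockdown, and 0.191, 0.227 and 0.247 CPM in scramble, higher in the circRNA knockdown by 2.64 ± 0.55 (SE, adjusted p = 0.00311). Cspg4, the other oligodendrocyte precursor marker tested, differed by -0.12 there (adjusted p = 0.889). Of 5 interneuron markers tested, 3 were lower in the circRNA knockdown than in scramble (2 by DESeq2), with a median log2 fold change of -1.54. Summed over 6 listed, interneuron markers reached 1.53 to 2.68 CPM in the circRNA knockdown and 3.06 to 6.92 CPM in scramble. Of 4 erythroid markers tested, 2 (50.0%, beside 26.1% of all genes) were higher in the circRNA knockdown than in the mRNA knockdown. The median difference of the 4 was 1.07.

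Xist bears on which calls hold. Adding its level to the model left 8 of 17 higher and 0 of 5 lower calls against scramble in the circRNA knockdown by edgeR, where 18 genes higher and 3 lower had an unadjusted p under 0.05. DESeq2 without that term called 18 higher and 5 lower. The metabolic genes Fabp7, Aldoc, Mt3 and Slc1a3 were still called, and so were Sox21, Ednrb, Ttyh1 and Mfge8. Sox2 had a log2 fold change of 0.82 with that term (adjusted p = 0.129) and Sox9 one of 0.86 (adjusted p = 0.0794). Prkci had -0.59 (adjusted p = 0.0532) and Gpsm2 -0.75 (adjusted p = 0.0999). The other calls that ended were Nes (0.74), Veph1 (0.96), Dbi (0.59), Phgdh (0.91), Psat1 (0.38), Pard3 (0.32), Msi2 (0.34), Msi1 (-0.38), Llgl1 (-0.18) and Glul (-0.03). Among the other genes named, the calls of Fat4 (0.45, adjusted p = 0.0707) and Gldc (0.67, adjusted p = 0.114) in the circRNA knockdown ended with the Xist term, and so did those of Lats1 (0.30, adjusted p = 0.137) and Slc1a4 (-0.34, adjusted p = 0.265) in the mRNA knockdown and of Gldc between the knockdowns (0.42, adjusted p = 0.0526). Higher calls in the circRNA knockdown numbered 10 with that term and 16 without it for the other radial glia genes, 6 and 11 for astroglial maturation, 3 and 7 for apical junctions and polarity, and 5 and 7 for the other Hippo genes. Of the markers of other cells, Olig2 (adjusted p = 0.113), Eomes (adjusted p = 0.194), Sstr2 (adjusted p = 0.0667) and Dcx (adjusted p = 0.103) were no longer called in the circRNA knockdown, nor was Dcx in the mRNA knockdown (adjusted p = 0.0975). The term also takes up part of the group difference, since Xist and group run together here.

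Of the mRNA knockdown libraries, replicate 3 was without Xist at 1 CPM, like scramble. With the Xist term 4 of the 11 genes called higher in the mRNA knockdown were still called, and Hopx (0.82), Prom1 (0.30), Veph1 (0.81), Slc1a3 (0.59), Ddah1 (0.60), Pard3 (0.29) and Wwtr1 (0.57) were not. Over all genes tested, the calls of the mRNA knockdown against scramble went from 3200 to 758 with that term. In the direct comparison all libraries but that replicate carried Xist. The mix of sexes still differed among these, since mRNA knockdown replicate 1 had Ddx3y at 0 CPM and the others held both genes. Without mRNA knockdown replicate 3, 13 genes were higher and 4 lower in the circRNA knockdown than in the mRNA knockdown. Msi1, Numbl and Tead2 were then not called (-0.26, 0.48 and -0.20), and Phgdh was.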

How the data were processed

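RNA of GFP+ cortical cells was sequenced in 9 libraries, 3 in each of 3 groups. The authors deposited whole read counts per gene, without normalization, and every column was used. Per the submitters' processing notes, the build was mm10 and the tools included STAR 2.4.2a, bcl2fastq 2.17.1.14 and DESeq2, with no role stated. Not given in the sources used here are the annotation release, the counter and its strand setting. Gene IDs were joined to GENCODE M21 (GRCm38, the assembly of mm10), which gave a symbol for 53274 of 53379 IDs, and exon lengths and positions come from it. The members, the gene lists and the tests were chosen with earlier results of these data known, so they are not independent of them.

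Genes were kept with filterByExpr of edgeR 4.0.16 (R 4.3.3, minimum count 10, by group), which left 17760. Scaling used TMM factors. A quasi-likelihood model of the 3 groups took in all 9 libraries, which leaves 6 residual degrees of freedom, and 3 comparisons were tested with Benjamini-Hochberg adjustment over all genes tested. An adjusted p under 0.05 is a call. Fold changes are log2, and each SE is the fold change over the root of its F statistic. The biological coefficient of variation common to all genes was 13.9%. The labels call the replicates biological without saying how many embryos each held. Replicate libraries differed by more than counting noise (chi-square per degree of freedom 8.42 to 47.3), so none was counted as a duplicate. A count of 0 allows up to 3 counts, or 0.0671 CPM at the greatest depth and 0.143 CPM at the least, counting error only.

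On simulated data with 100 genes changed per fold size, the test recovered 40% of 1.5-fold and 72% of 2-fold changes for the circRNA knockdown against scramble (17450 genes), with 8 false calls. For the mRNA knockdown against scramble it recovered 38% and 71% (17437 genes), with 5 false calls, and for the direct comparison 39% and 73% (17450 genes), with 5. Far fewer genes were changed in the simulation than were called in the data (4814, 3200 and 4632 in that order). The adjusted threshold depends on that number, so these shares do not give the recovery in the data. All 38 members are reported, and of each supporting list the 4 genes with the smallest p in either knockdown against scramble. The rule also takes in Slc45a4 as the target, and Xist and Ddx3y for the sex of the embryos. Pdgfrb, Rgs5, Cspg4, Emx1, Eomes, Neurog1, Sstr2, Dcx and Olig2 were named from the marker lists after their values were seen. Alternatives were RLE and upper-quartile factors, DESeq2 1.42.0, no filter, a filter of 1 CPM in 3 libraries, a fit of the 6 compared libraries, a replicate block, Xist as a covariate (log2 of CPM plus 0.1) and leaving out each library. Promoter windows come from RefSeq (GRCm38.p6).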

Additional observations from a re-analysis of the deposited data

How the results depend on the processing

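Over the values recomputed for the 38 genes, 1762 kept their direction and their side of the threshold, 110 lost a call, 25 gained one and 41 changed sign. Calls were gained by Tfap2c, Ptprz1, Wwtr1 and Pard3b in the circRNA knockdown against scramble. In the mRNA knockdown Nes, Ptprz1, Mfge8, Numbl and Tead1 gained one, and between the knockdowns Phgdh, Psat1 and Hopx did. None of the sign changes was of a called gene, and the cause was not tested. With upper-quartile factors the values that changed sign were those of Numb in the circRNA knockdown against scramble (-0.048) and of Pard3 (-0.018), Pard3b (-0.012) and Yap1 (-0.017) between the knockdowns. With the Xist covariate they were Ddah1 (0.149), Numb (-0.033) and Tead2 (0.008) in the circRNA knockdown, Sox3 (0.026), Mfge8 (0.166) and Dbi (0.017) in the mRNA knockdown, and Yap1 (-0.002) between the knockdowns.

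That covariate left 8 higher and 0 lower calls in the circRNA knockdown (unadjusted p under 0.05 in 18 and 3) and 4 higher calls in the mRNA knockdown, with metabolic medians of 0.837 and 0.590. Over all genes tested, it took the calls from 4814 to 1241 in the circRNA knockdown and from 3200 to 758 in the mRNA knockdown. Fitting only the 6 compared libraries left 7 higher calls in the mRNA knockdown, and dropping the filter gave 4 lower ones. The other settings that kept all libraries gave 15 to 20 higher and 4 or 5 lower calls in the circRNA knockdown, 9 to 12 and 1 in the mRNA knockdown, and 12 to 15 and 5 to 7 between them.

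Leaving out each library in turn gave 14 to 19 higher and 2 to 5 lower calls in the circRNA knockdown, 5 to 10 and 1 to 2 in the mRNA knockdown, and 12 to 14 and 4 to 6 between the knockdowns. The metabolic median ranged over 0.394 to 0.722 in the circRNA knockdown and the stem cell factor median over -0.02 to 0.293 in the mRNA knockdown. Sign changes fell in these ranges: in the circRNA knockdown Nr2e1 -0.069 to 0.284, Vim -0.087 to 0.182, Numb -0.037 to 0.046 and Numbl -0.03 to 0.284. In the mRNA knockdown they were Sox2 -0.041 to 0.362, Sox3 -0.229 to 0.08, Nr2e1 -0.139 to 0.214, Ttyh1 -0.097 to 0.135, Phgdh -0.043 to 0.28, Psat1 -0.057 to 0.302 and Yap1 -0.062 to 0.331. Between the knockdowns they were Sox1 -0.21 to 0.175, Nr2e1 -0.023 to 0.188, Ptprz1 -0.008 to 0.357, Veph1 -0.103 to 0.203, Pard3 -0.011 to 0.077, Pard3b -0.086 to 0.188, Yap1 -0.109 to 0.283 and Wwtr1 -0.288 to 0.002.

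Same-numbered libraries did not deviate together in every pair (correlations of -0.141 to 0.115), so the replicate numbers do not pair all 3 groups. Between the circRNA and mRNA knockdowns, however, same-numbered libraries had correlations of 0.0828, 0.0815 and 0.115, and differently numbered ones of -0.0705 to -0.028. Whether the 2 knockdowns were paired is thus not settled, and the main fit of the direct comparison used no pairing. The fit with the replicate block called 16 higher and 4 lower in the circRNA knockdown, 9 and 1 in the mRNA knockdown, and 12 and 6 between them. Depth and 3 libraries a group limit what a missed call shows for small differences.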
